A study of Mus musculus with 12 samples.

Results

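The genes described here are 38 endothelial, blood-brain barrier and angiogenic genes, taken by symbol from a list and matched to the count table, which holds 49671 genes. All 38 were found and all 38 passed the filter on low counts, as did 17812 genes in all. They were sorted by role into 9 receptors, 6 ligands and other secreted proteins, 7 junction and adhesion proteins, 3 transcription factors, 6 transporters, 3 genes of caveolae and diaphragms, and 4 other endothelial genes.

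Endothelial cells line every blood vessel, and in the brain they form the blood-brain barrier, in which tight junctions seal the gaps between cells and transporters control what crosses. Vessels sprout when vascular endothelial growth factor (VEGF) acts on its receptors Kdr and Flt1. Leading tip cells then extend from the wall, the Notch ligand Dll4 restrains their neighbours, and Angpt2, an antagonist of the receptor Tek, loosens the resting vessel. High-grade gliomas are known for dense and abnormal vessels.

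The study sequenced RNA of mouse brain that had been fixed in formalin and embedded in paraffin, as 12 libraries in 4 groups of 3. The tumour groups are named by tumour genotype: IDH1_R132H, the glioma mutant of isocitrate dehydrogenase 1, IDH1WT, its unmutated form, and PDGFA, a platelet-derived growth factor. Mice with tumours were N::TVA, homozygous for floxed alleles, Cdkn2a and Atrx among them. TVA is a bird virus receptor that lets RCAS vectors infect mouse cells. Normal brain came from mice with the same floxed alleles that were negative for TVA. The cells that express TVA, the mice's ages, and whether the IDH1 tumours also received PDGFA are not stated by the labels. Nor do the labels say that each library is a separate animal, so the p-values measure the spread between these libraries, which may be in part technical.

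Total counts ran from 6507923 to 14277395 per library. Ribosomal-RNA-like loci took 45.99% of IDH1_R132H tumour 3 and 2.896% to 19.44% of the other libraries. PDGFA tumour 1 stood apart from the other tumours in its cell type markers: its summed level was 878 CPM over 7 astrocyte markers and 26.6 over 10 microglia and macrophage markers, against 3190 to 5960 and 165 to 336 in the other 8 tumours. It had the highest tumour sums of 6 myelin markers (10900 CPM, the next tumour 6020, normal brains 3240 to 3310) and of 10 neuron markers (7170 CPM, the next tumour 6600, normal brains 6060 to 6330). Normal brains 1 and 2 were much alike: over genes with at least 20 counts in the pair their chi-square per gene was 2.59, above the value of 1 that sampling noise gives, while normal brain 3 gave 30 and 28.9 with them and pairs of tumours within a group 12.3 to 347. They were kept as 2 samples, and whether they came from 1 mouse was not tested. Levels here and below are CPM, the usual unit of counts scaled to a common library total, after adjustment by trimmed mean of M values (TMM). The tests are edgeR quasi-likelihood fits over all genes, with Benjamini-Hochberg adjusted p under 0.05 taken as called. Standard errors (SE) and fold changes are on the log2 scale, and tumours are compared with normal brain with the 3 tumour groups weighted equally. In bulk tissue more endothelial cells and more RNA per endothelial cell cannot be told apart.

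The label of the set was checked with 8 defining endothelial genes, Cldn5, Cdh5, Pecam1, Tie1, Kdr, Flt1, Esam and Egfl7. Each was detected in all 12 libraries, with a lowest level of 6.37 CPM (Tie1, normal brain 2). Their mean log2 level relative to the 12 libraries was -0.61, -0.71 and -0.41 in the normal brains. In the tumours it ran from -0.35 in PDGFA tumour 2 to 0.66 in IDH1WT tumour 3, so every tumour lay above every normal brain.

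Promoter sequence is shown for a few members, to set the DNA before the start site of genes that rose in tumours beside that of genes that did not pass the test. RefSeq promoters on GRCm38.p6 were matched for 26 of the 38 members, 35 promoters in all, and the 250 bases before the start were read 5′ to 3′ on the gene's strand. Capitals mark AGGAAG, or its reverse complement CTTCCT, which holds the shorter core GGAA that ETS factors such as Erg bind. GGAA alone was not counted, and it or its reverse complement TTCC also stands in the Dll4 and Esm1 windows below. The first 3 genes below rose in tumours (Esm1, chr13:113209409-113209658, + strand; Dll4, chr2:119325534-119325783, + strand; Cldn5, chr16:18776597-18776846, + strand) and the other 2 did not pass the test (Flt1, chr5:147726012-147726261, - strand; Slco1a4, chr6:141856221-141856470, - strand).
Esm1: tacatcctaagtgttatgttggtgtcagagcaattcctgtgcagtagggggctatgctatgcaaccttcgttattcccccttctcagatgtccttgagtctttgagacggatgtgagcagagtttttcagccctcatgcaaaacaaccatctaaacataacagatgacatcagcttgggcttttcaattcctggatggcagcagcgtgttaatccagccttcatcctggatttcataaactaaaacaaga
Dll4: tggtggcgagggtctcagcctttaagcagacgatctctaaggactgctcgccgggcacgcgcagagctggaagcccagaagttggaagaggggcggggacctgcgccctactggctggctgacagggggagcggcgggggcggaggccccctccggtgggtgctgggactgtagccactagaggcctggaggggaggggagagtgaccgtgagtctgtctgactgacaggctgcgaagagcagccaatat
Cldn5: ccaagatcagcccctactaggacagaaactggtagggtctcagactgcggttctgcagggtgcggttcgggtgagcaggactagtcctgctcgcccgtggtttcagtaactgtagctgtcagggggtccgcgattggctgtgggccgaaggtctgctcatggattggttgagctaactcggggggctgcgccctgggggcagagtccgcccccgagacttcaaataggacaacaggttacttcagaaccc
Flt1: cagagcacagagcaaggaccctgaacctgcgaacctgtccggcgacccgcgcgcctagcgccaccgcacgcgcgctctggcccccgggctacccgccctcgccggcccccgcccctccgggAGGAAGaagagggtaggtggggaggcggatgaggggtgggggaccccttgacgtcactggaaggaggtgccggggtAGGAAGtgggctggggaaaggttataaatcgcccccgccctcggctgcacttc
Slco1a4: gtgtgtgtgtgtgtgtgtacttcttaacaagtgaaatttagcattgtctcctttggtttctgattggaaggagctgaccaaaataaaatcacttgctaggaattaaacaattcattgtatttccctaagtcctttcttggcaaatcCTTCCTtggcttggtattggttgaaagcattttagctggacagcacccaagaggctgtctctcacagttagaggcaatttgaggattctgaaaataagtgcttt
Capitals stand at 2 places in Flt1 and at 1 in Slco1a4, and neither AGGAAG nor CTTCCT is in the windows of Esm1, Dll4 and Cldn5. AGGAAG was present on either strand in 54.3% of the 35 member promoters and in 29.5% of all 32851 promoters of the same length. Among members with a promoter, it was present in 5 of the 10 called in tumours and in 11 of the 16 not called. The windows shown thus split more cleanly than the members did. Called Tie1, Calcrl, Robo4, Abcg2 and Apold1 held AGGAAG, and uncalled Ocln, Tek, Slc2a1, Mfsd2a and Cav2 did not. The SOX core AACAAT stood in 14.3% of member promoters and 9.42% of all. Of the others searched on both strands, the hypoxia response core ACGTG stood in 11.4% and 16.6%, the GC box GGGCGG in 45.7% and 32.7%, and TATAAA in 14.3% and 12.4%. None of these motifs contains another, and a match describes the sequence only.

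Endothelial genes were higher in the tumours as a group, and the rise was uneven. The members were chosen with earlier results of these data known, which limits any comparison with the share of all genes. Of the 38 members, 15 rose and 0 fell in tumours against normal brain (1, Slco1a4, was lower at an unadjusted p under 0.05, DESeq2 called 0 lower, and limma voom called Slco1a4 and Ly6c1 lower), where edgeR called 5.22% of all 17812 genes, 3.71% higher and 1.5% lower. The median log2 fold change was 0.89 over the members and -0.01 over all genes tested. Of the members 32 were positive and 6 negative, and of all genes 8670 and 9142. The largest rises were those of the secreted sprouting genes Esm1 (3.84) and Angpt2 (3.75). All 9 tumours lay above all 3 normal brains for 10 members, Kdr, Aplnr, Robo4, Angpt2, Esm1, Dll4, Vwf, Esam, Erg and Apold1, an ordering that 4.67% of all genes had. The opposite ordering, all tumours below, held for 0 members and 2.84% of all genes. The calls rest on all 3 normal brains: with any 1 of them left out, edgeR called 0 members (21, 21 and 24 at an unadjusted p under 0.05) and 0, 1 and 3 genes of all those tested. With normal brains 1 and 2 summed as 1 library, an alternative chosen after seeing the data, edgeR also called 0 members (21 at an unadjusted p under 0.05), and each member called above kept its direction. Without IDH1_R132H tumour 2, or without IDH1WT tumour 3, 9 members were called.

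**Figure D1:**
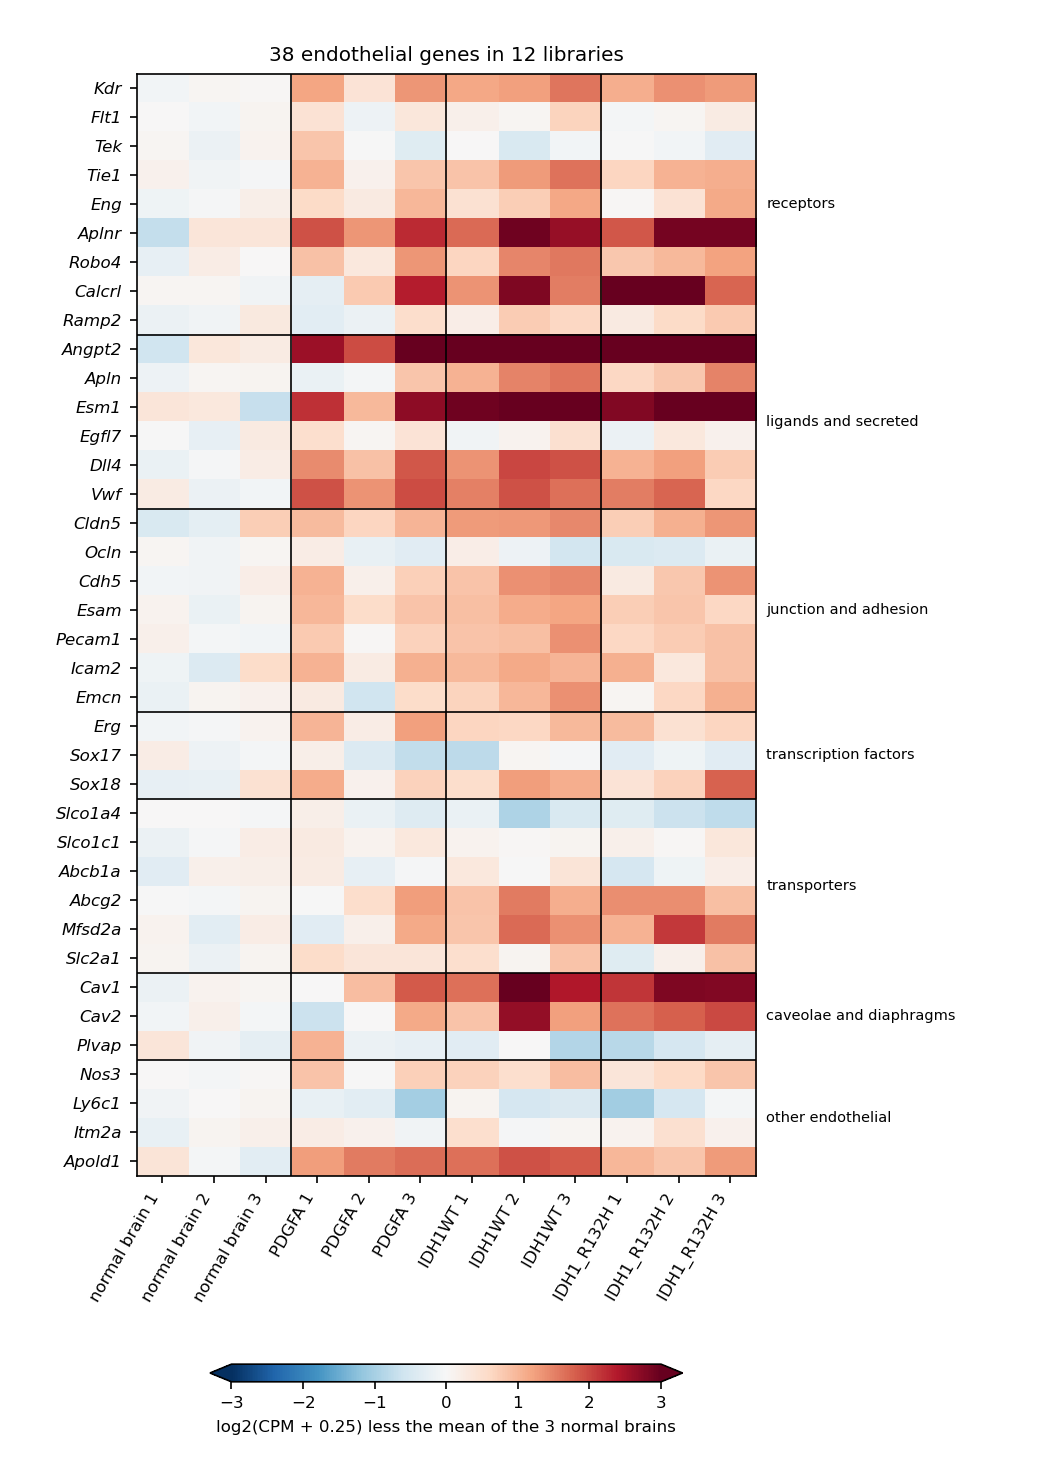
Level of each of the 38 members (rows, by role) in each of the 12 libraries (columns), as log2(CPM + 0.25) less the mean of the 3 normal brains; the colour scale runs from -3 to 3 and values beyond it take the end colour. Angpt2 and Esm1 are the darkest rows, while Tek, Ocln, Sox17, Slco1a4, Plvap and Ly6c1, the 6 members with a negative log2 fold change, mostly stay pale or turn blue. Exceptions are Tek (17.6 CPM) and Plvap (13.2 CPM) in PDGFA tumour 1, above all normal brains.

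Among the receptors 5 of 9 rose. Kdr, the main VEGF receptor of endothelium (chromosome 5, 75932827 to 75978458), stood at 12.1, 13.4 and 13.2 CPM in normal brain and at 27.9, 33.5 and 31.6 in IDH1_R132H tumours 1 to 3. IDH1WT tumours had 28.9, 30.5 and 39.8, and PDGFA tumours 29.5, 17.2 and 32.7. The groups did not overlap, and PDGFA tumour 2 was the lowest tumour. Kdr rose by 1.22 (SE 0.2, edgeR adjusted p = 0.015), 2.32-fold. Flt1, the other VEGF receptor, which binds VEGF tightly and signals weakly, stood at 57.5 to 64.2 CPM in normal brain and 55.3 to 97.6 in tumours, overlapping, and differed by 0.22 on the log2 scale (95% interval -0.13 to 0.56, adjusted p = 0.44).

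Aplnr, the apelin receptor (chromosome 2, 85136225 to 85139923), gave the largest difference of the receptors. Its level was 0.693, 1.76 and 1.75 CPM in normal brain, against 5.45, 11.1 and 11.2 in IDH1_R132H, 4.84, 11.5 and 9.22 in IDH1WT and 5.59, 3.65 and 7.07 in PDGFA tumours. Every tumour was above every normal brain, and Aplnr rose by 2.4 (SE 0.41, edgeR adjusted p = 0.016). Tie1, the orphan partner of Tek (chromosome 4, 118471191 to 118490061), stood at 7.51, 6.37 and 6.74 in normal brain. In tumours it stood at 10.8, 14.4 and 15 (IDH1_R132H), 12.7, 17.1 and 21.6 (IDH1WT) and 14.5, 7.46 and 12.4 (PDGFA). Only PDGFA tumour 2 fell inside the normal range, and Tie1 rose by 1 (SE 0.24, edgeR adjusted p = 0.033).

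Robo4, a guidance receptor of vessel walls (chromosome 9, 37401897 to 37415115), had 3.93, 5.49 and 4.73 CPM in normal brain. Tumours had 8.31, 9.36 and 11.1 (IDH1_R132H), 7.42, 13.4 and 14.6 (IDH1WT) and 8.83, 5.89 and 12 (PDGFA), all above normal brain, and Robo4 rose by 1.08 (SE 0.27, edgeR adjusted p = 0.042). Tek, the angiopoietin receptor, did not follow Tie1: its log2 fold change was -0.02 (95% interval -0.53 to 0.48), with normal brains at 8.67 to 10.5 CPM and tumours at 7.07 to 17.6. The highest Tek level was that of PDGFA tumour 1, and the next tumour stood at 9.87. Eng, a co-receptor for transforming growth factor beta family ligands, had a log2 fold change of 0.69 (adjusted p = 0.12), with normal brains at 11.9 to 14.9 CPM and tumours at 13.5 to 29.6.

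Calcrl, the receptor for calcitonin gene-related peptide and, with Ramp2, for adrenomedullin (chromosome 2, 84330626 to 84425411), varied more among tumours than any other receptor. It stood at 11.9, 11.9 and 10.6 CPM in normal brain, 96.8, 104 and 39.3 in IDH1_R132H, 29.7, 80.9 and 33.4 in IDH1WT and 9.5, 19.8 and 59.4 in PDGFA tumours. PDGFA tumour 1 lay below all normal brains and the other 8 tumours above them. Calcrl rose by 2.08 (SE 0.54, edgeR adjusted p = 0.045). Its partner Ramp2 had a log2 fold change of 0.38 (95% interval -0.12 to 0.88), with 6.47 to 9.19 CPM in normal brain and 5.93 to 13 in tumours.

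The 7 oligodendrocyte precursor markers, which the tumour cells of glioma models often carry, moved with Calcrl. All 7 rose in tumours, none was at 0 in any library, and their summed level was 215 to 218 CPM in normal brain, 1900 to 4630 in IDH1_R132H, 1340 to 4460 in IDH1WT and 355 to 2510 in PDGFA tumours. The lowest tumour was PDGFA tumour 1 and the next PDGFA tumour 2, as for Calcrl, and the 3 highest were IDH1_R132H 1 and 2 and IDH1WT 2 for both. This order was not particular to precursor markers. PDGFA tumours 1 and 2 were also lowest, and the same 3 tumours highest, for the sum of 11 tight junction partners. Those sums were 303 and 383 CPM, and 527, 548 and 555 CPM. The sum of 18 Wnt and beta-catenin genes had the same lowest and highest tumours. The part of precursor or other cells in the Calcrl level was not tested.

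**Figure D2:**
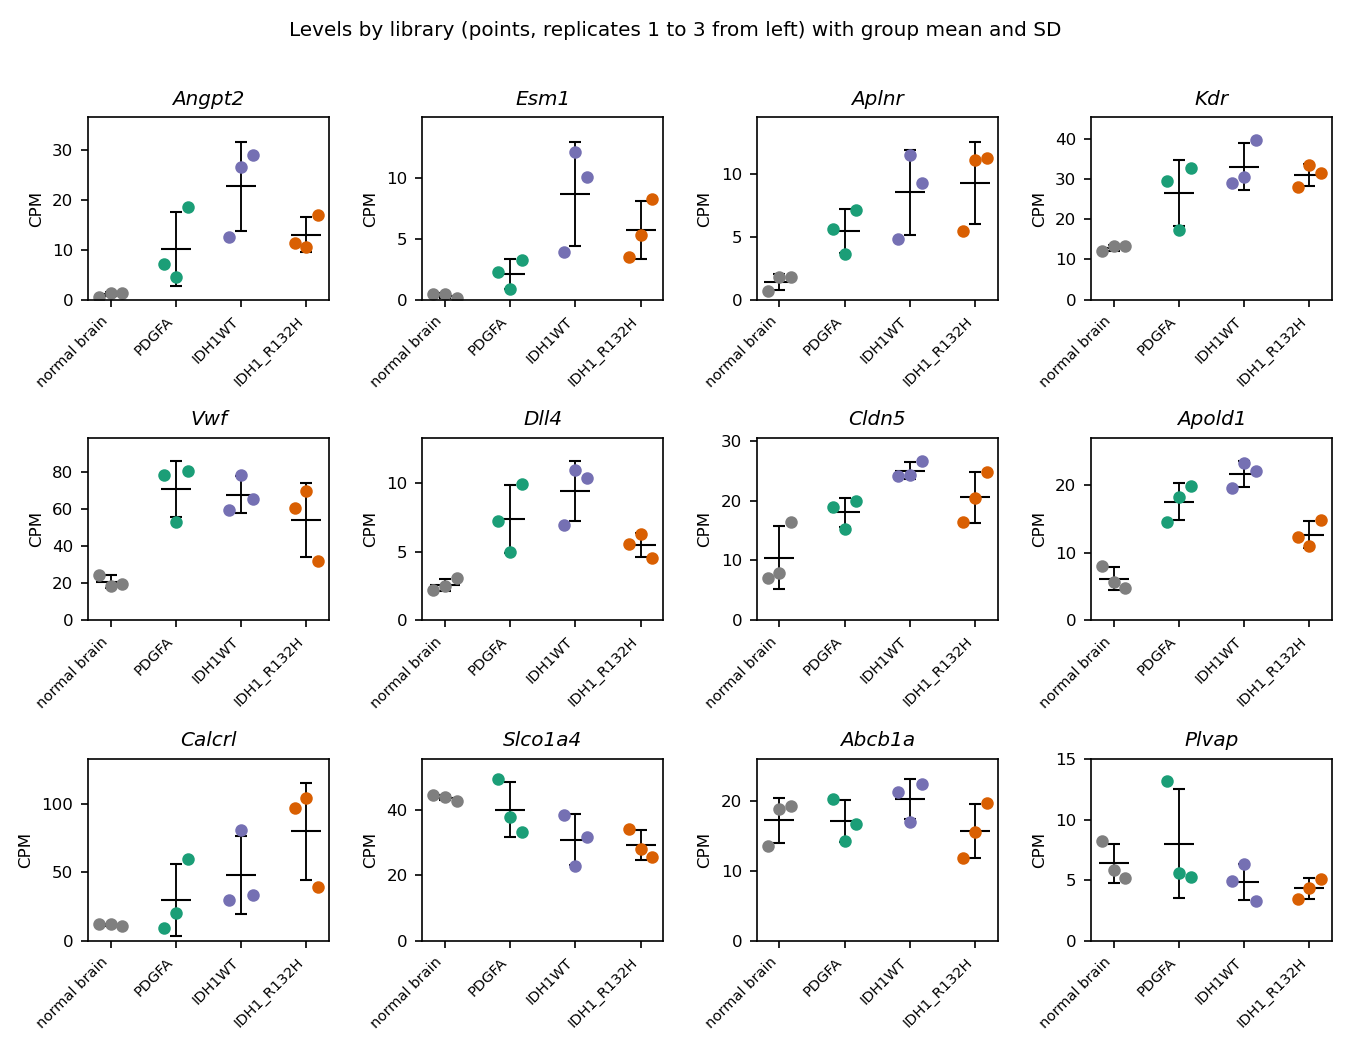
CPM of 12 members in each library (points, replicates 1 to 3 from left) by group, with the group mean and SD as bars; each panel has its own linear axis from 0. Angpt2, Esm1, Aplnr, Kdr, Vwf, Dll4 and Apold1 have all 9 tumours above all 3 normal brains, Calcrl spreads from 9.5 to 104 in tumours, and Abcb1a overlaps throughout.

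Of the 6 ligands and secreted proteins 4 rose, and the role had the highest median log2 fold change of the 7 (1.55). Angpt2, the Tek antagonist of sprouting vessels (chromosome 8, 18690263 to 18741562), stood at 0.577, 1.32 and 1.23 CPM in normal brain. It stood at 11.3, 10.6 and 17 in IDH1_R132H, 12.5, 26.6 and 28.9 in IDH1WT and 7.16, 4.56 and 18.5 in PDGFA tumours. Even the lowest tumour, PDGFA tumour 2, was above the highest normal brain. The rise was 3.75 (SE 0.53, edgeR adjusted p = 0.011), 13.4-fold, from normal brain counts of only 5, 12 and 14. Mcph1, whose span overlaps Angpt2 on the opposite strand, had a log2 fold change of 0.05 (adjusted p = 0.85), and the strand setting of the counting is unknown.

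Esm1, a secreted proteoglycan of tip cells also called endocan (chromosome 13, 113209659 to 113218098), stood at 0.462, 0.439 and 0.0875 CPM in normal brain, which are counts of 4, 4 and 1. Tumours had 3.54, 5.29 and 8.29 (IDH1_R132H), 3.91, 12.1 and 10.1 (IDH1WT) and 2.24, 0.829 and 3.26 (PDGFA). All tumours were above normal brain, PDGFA tumour 2 by the least with a count of 10. Esm1 rose by 3.84 (95% interval 2.43 to 5.25, edgeR adjusted p = 0.016), with the fold limited in precision by the low normal counts.

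Dll4, the endothelial Notch ligand (chromosome 2, 119325784 to 119335962), had 2.19, 2.52 and 3.06 CPM in normal brain, against 5.59, 6.31 and 4.54 in IDH1_R132H, 6.96, 11 and 10.4 in IDH1WT and 7.27, 4.97 and 9.97 in PDGFA tumours. No tumour overlapped normal brain, and Dll4 rose by 1.48 (SE 0.27, edgeR adjusted p = 0.017). Vwf, the clotting factor stored in endothelial granules (chromosome 6, 125546774 to 125686679), was at 24.5, 18.2 and 19.5 in normal brain and at 60.2, 69.8 and 31.6, then 59.2, 78.5 and 65.2, then 78.5, 53 and 80.3 in IDH1_R132H, IDH1WT and PDGFA tumours. IDH1_R132H tumour 3 was the lowest tumour and still above normal brain, and Vwf rose by 1.62 (SE 0.24, edgeR adjusted p = 0.012).

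Apln, the apelin ligand of Aplnr and a tip cell gene (chromosome X, 48025146 to 48034853), had levels of 17.4, 20.2 and 20.5 CPM in normal brain, 29.6, 33.9 and 54.9 in IDH1_R132H, 40, 54.5 and 59.2 in IDH1WT and 16.7, 18.4 and 34.3 in PDGFA tumours. PDGFA tumour 1 lay below the normal brains, PDGFA tumour 2 within their range and the other 7 tumours above. For all tumours Apln did not pass the edgeR test (0.89, adjusted p = 0.058). DESeq2 and limma voom called it higher (adjusted p = 0.0082 and 0.001), and limma on the deposited log2 values did not. Egfl7, a secreted matrix protein of vessels whose gene hosts an endothelial microRNA, had 13.8 to 20 CPM in normal brain and 14.7 to 23.5 in tumours (log2 fold change 0.19, 95% interval -0.19 to 0.58).

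**Figure D3:**
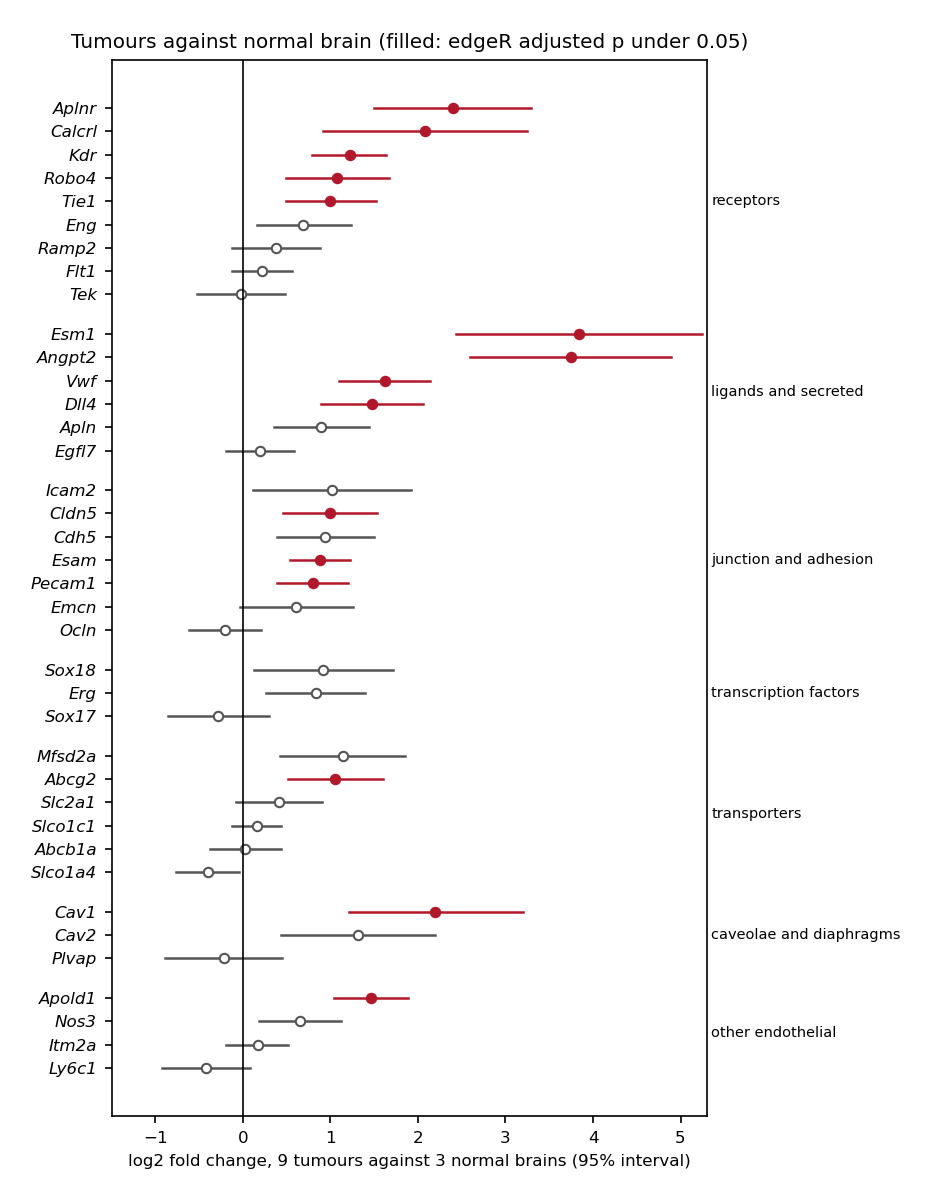
Log2 fold change of each of the 38 members in 9 tumours against 3 normal brains (points, by role) with its 95% interval (lines); filled red points were called by edgeR. The 15 called members are all to the right of 0, and the intervals of Tek, Ocln, Abcb1a, Plvap and Ly6c1 span 0.

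Of the 7 junction and adhesion genes 3 rose. Cldn5, the main claudin of the brain's tight junctions (chromosome 16, 18776847 to 18778262), stood at 7.04, 7.9 and 16.5 CPM in normal brain, 16.4, 20.5 and 24.9 in IDH1_R132H, 24.1, 24.4 and 26.7 in IDH1WT and 18.9, 15.3 and 20 in PDGFA tumours. Normal brain 3 reached the lower tumours, so the groups overlapped. Cldn5 rose by 0.99 (SE 0.25, edgeR adjusted p = 0.04). Esam, an adhesion molecule of the same junctions (chromosome 9, 37528078 to 37538319), had 9.24, 7.46 and 9.1 in normal brain and 12.7 to 19.9 in tumours. Its values were 14.4, 15.4 and 13.4 in IDH1_R132H, 16.1, 18.9 and 19.9 in IDH1WT and 17.2, 12.7 and 15.8 in PDGFA tumours, with no overlap, a rise of 0.88 (SE 0.16, edgeR adjusted p = 0.016).

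Pecam1, an adhesion molecule of platelets and endothelium (chromosome 11, 106654217 to 106750628), had 15.7, 13.5 and 13.3 CPM in normal brain. Tumours had 21.7, 24.3 and 26.4 (IDH1_R132H), 25.6, 26.7 and 37.2 (IDH1WT) and 24.6, 14.5 and 23.1 (PDGFA), with PDGFA tumour 2 alone inside the normal range, and Pecam1 rose by 0.8 (SE 0.19, edgeR adjusted p = 0.033). Cdh5, the cadherin of endothelial adherens junctions, was just outside the threshold (0.94, edgeR adjusted p = 0.054), with normal brains at 7.24 to 9.01 CPM and tumours at 8.79 to 21.9. DESeq2 and limma voom called it higher (adjusted p = 0.0066 and 0.002), and limma on the deposited log2 values did not. Icam2 (1.02, adjusted p = 0.16) was low throughout, at 0.329 to 1.46 CPM. Emcn, a sialomucin of capillaries and veins, stood at 0.61 (adjusted p = 0.23). Ocln, the tight junction protein occludin, had a negative log2 fold change of -0.2 (95% interval -0.62 to 0.21), with 9.11 to 10.3 CPM in normal brain and 6.68 to 11.6 in tumours.

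Of the 3 transcription factors edgeR called 0 (2 at an unadjusted p under 0.05), DESeq2 1, limma voom 2 and limma on the deposited log2 values 0. Erg, the ETS factor that maintains endothelial identity, stood at 2.54 to 2.89 CPM in normal brain and 3.15 to 6.62 in tumours without overlap (0.83, edgeR adjusted p = 0.082). Sox18 had a log2 fold change of 0.92 (adjusted p = 0.15) and its relative Sox17, a factor of arterial endothelium, -0.28 (95% interval -0.86 to 0.3). Sox17 was low, at 2.12 to 4.5 CPM, and the groups overlapped.

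The 6 transporters of the barrier had the lowest median log2 fold change of the roles (0.28), and 1 of them rose. Abcg2, a drug efflux pump (chromosome 6, 58584523 to 58695676), stood at 12.9, 12.5 and 13.8 CPM in normal brain, 34.9, 34.5 and 24.7 in IDH1_R132H, 23.9, 38.8 and 28.2 in IDH1WT and 12.9, 18.9 and 31.3 in PDGFA tumours. PDGFA tumour 1 lay within the normal range and the other 8 tumours above it, and Abcg2 rose by 1.05 (SE 0.25, edgeR adjusted p = 0.035). The other efflux pump, Abcb1a (P-glycoprotein), had 13.5 to 19.3 CPM in normal brain and 11.9 to 22.5 in tumours, a log2 fold change of 0.02 (95% interval -0.38 to 0.43). Reads of Abcb1a may be shared with its near copy Abcb1b, so its level is uncertain.

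Slco1a4, an organic anion transporter of brain endothelium (chromosome 6, 141805440 to 141856199), stood at 44.3, 43.8 and 42.7 CPM in normal brain. It stood at 34.1, 27.9 and 25.5 in IDH1_R132H, 38.2, 22.7 and 31.6 in IDH1WT and 49.2, 37.7 and 33.1 in PDGFA tumours. PDGFA tumour 1 was above all normal brains and the other 8 tumours below them. The log2 fold change was -0.4 (95% interval -0.76 to -0.04) and did not pass the test (unadjusted p = 0.031, edgeR adjusted p = 0.16). Close relatives in the Slco1a family make its counts uncertain. Slco1c1, a thyroxine transporter, differed little, with 22.3 to 29.7 CPM in normal brain and 25.9 to 32.2 in tumours (0.16, 95% interval -0.12 to 0.43). Slc2a1, the glucose transporter GLUT1, stood at 48.8 to 58.1 and 42.2 to 101 CPM (0.41, adjusted p = 0.29).

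Mfsd2a, the lipid transporter that holds back vesicle traffic across the barrier (chromosome 4, 122946850 to 122961188), stood at 14.7, 10.9 and 16.1 CPM in normal brain, 28.3, 60.9 and 40.7 in IDH1_R132H, 24.6, 45.4 and 35.8 in IDH1WT and 10.7, 15.2 and 30.4 in PDGFA tumours. PDGFA tumour 1 lay below all normal brains, PDGFA tumour 2 within their range and the other 7 tumours above. In all tumours Mfsd2a did not pass the edgeR test (1.14, adjusted p = 0.062). DESeq2 and limma voom called it higher (adjusted p = 0.0069 and 0.0024), and limma on the deposited log2 values did not. Mfsd2a and Abcg2, like Calcrl, were lowest among tumours in PDGFA tumours 1 and 2. The sums of precursor markers (355 and 850 CPM) and of tight junction partners (303 and 383 CPM) were also lowest there. The part of precursor or other cells in these levels was not tested.

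Caveolae, the membrane pits that carry cargo across vessel walls, are built from Cav1 and Cav2. Cav1 (chromosome 6, 17306335 to 17341452) stood at 12.7, 15.5 and 14.9 CPM in normal brain, 64.2, 102 and 100 in IDH1_R132H, 45.8, 190 and 76.6 in IDH1WT and 14.5, 27.4 and 52.3 in PDGFA tumours. PDGFA tumour 1 was within the normal range, the other 8 tumours were above it, and IDH1WT tumour 2 stood far above the rest. Cav1 rose by 2.2 (SE 0.46, edgeR adjusted p = 0.024), 4.61-fold.

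Cav2, its neighbour on chromosome 6 (17281185 to 17289115), had 15.9, 18.8 and 16.1 CPM in normal brain. Tumours had 52.9, 59.6 and 66.9 (IDH1_R132H), 30.9, 106 and 39.9 (IDH1WT) and 10.7, 16.9 and 37.2 (PDGFA). Its order of tumours resembled that of Cav1, with PDGFA tumour 1 lowest and IDH1WT tumour 2 highest. Cav2 did not pass the edgeR test in all tumours together (1.32, adjusted p = 0.074). DESeq2 and limma voom called Cav2 higher (adjusted p = 0.0083 and 0.0022), and limma on the deposited log2 values did not. The summed precursor markers had the same lowest tumour, and IDH1WT tumour 2 had the second highest sum, 4460 CPM. The orders otherwise differed. The highest sum, 4630 CPM, was that of IDH1_R132H tumour 2. IDH1_R132H tumour 3 had the lowest sum of its group, 1900 CPM, and the second highest Cav2 level, 66.9 CPM. The part of precursor cells in the Cav1 and Cav2 levels was not tested.

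Plvap forms the diaphragms of leaky fenestrated vessels and is known to be almost absent from mature barrier endothelium. It stood at 5.16 to 8.2 CPM in normal brain and 3.29 to 13.2 in tumours, highest in PDGFA tumour 1, with a log2 fold change of -0.22 (95% interval -0.89 to 0.45, edgeR adjusted p = 0.71). Gtpbp3 overlaps Plvap on the opposite strand, was also highest in PDGFA tumour 1 (22.8 CPM), and its reads may not be told apart from those of Plvap.

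Of the 4 other endothelial genes edgeR called 1, Apold1, while DESeq2 called Apold1 and Nos3 higher and limma voom also called Ly6c1 lower. Apold1, an early-response gene of stimulated endothelium (chromosome 6, 134981718 to 134986836), stood at 7.97, 5.71 and 4.73 CPM in normal brain, 12.3, 10.9 and 14.8 in IDH1_R132H, 19.5, 23.3 and 22.1 in IDH1WT and 14.6, 18.3 and 19.8 in PDGFA tumours. All tumours exceeded all normal brains, with IDH1_R132H tumours 1 and 2 the lowest tumours, PDGFA tumour 1 next at 14.6 and IDH1_R132H tumour 3 at 14.8. Apold1 rose by 1.46 (SE 0.2, edgeR adjusted p = 0.011). Nos3, the endothelial nitric oxide synthase, stood at 0.65 (adjusted p = 0.095), Itm2a at 0.17 (0.57) and Ly6c1, a surface protein of brain vessels with close paralogs, at -0.42 (0.29).

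The spread of the set within each tumour was set against the normal brains. In PDGFA tumour 2, 15 of the 38 members lay above all 3 normal brains, the fewest of any tumour, where 31.9% of all genes did. That tumour had the highest summed level of 5 red blood cell genes, 1020 CPM against 24.5 to 324 in the other libraries, and the part of blood in its values was not tested. In IDH1_R132H tumours 1 to 3 the count was 21, 28 and 30 (36.4%, 36.5% and 36.2% of all genes). It was 30, 27 and 30 in the IDH1WT tumours (30.6%, 38.4% and 35.5%) and 29 and 30 in PDGFA tumours 1 and 3 (30.8% and 37.9%). PDGFA tumour 1, whose astrocyte, microglial and precursor sums were the lowest of the tumours and whose myelin and neuron sums were the highest, had 29 members above normal brain, and its exceptions included Calcrl, Abcg2, Mfsd2a, Cav1 and Cav2.

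Each member was also expressed relative to the 8 defining genes, as a description without a test, to show which members moved more or less than the vessel markers as a whole. On this scale, in log2 units, Angpt2 stood 2.72 higher in tumours than in normal brain on average, Esm1 2.41, Aplnr 1.52, Cav1 1.27, Calcrl 1.07 and Vwf 0.81. For Cav1 (-1.8) and Calcrl (-1.93) PDGFA tumour 1 lay below all normal brains, and for Vwf (-0.87) IDH1_R132H tumour 3 did. At the other end were Ly6c1 (-1.22), Slco1a4 (-1.19), Sox17 (-1.06), Plvap (-1.01), Ocln (-0.98), Tek (-0.83) and Abcb1a (-0.74). Of the barrier members, the transporters Slco1a4, Abcb1a, Slco1c1 (-0.61) and Slc2a1 (-0.4) and the junction gene Ocln were lower on this scale. The defining genes Egfl7 (-0.58) and Flt1 (-0.57) stood close to Slco1c1 and lower than Slc2a1, so such values were not particular to barrier genes. Slc2a1 in PDGFA tumour 2 (0.42) lay above all normal brains (0.21 to 0.41). Mfsd2a (0.3), Abcg2 (0.22) and Cldn5 (0.32) were higher in point estimate only. The SD over the 9 tumours was 0.71 for Mfsd2a and 0.53 for Abcg2. Cldn5 is itself a defining gene, and its value in normal brain 3 (0.35) lay above those of all 9 tumours (-0.16 to 0.3). Of the 5 lower barrier members edgeR called 0 in absolute level (1 at an unadjusted p under 0.05, Slco1a4), DESeq2 0, and limma voom called Slco1a4 lower. Over the 9 tumours the SD of this relative level was largest for Calcrl (1.16), Cav1 (1.03) and Cav2 (0.97). It was 0.11 for Pecam1 and 0.14 for Kdr, Cldn5 and Nos3. Pecam1, Kdr and Cldn5 are among the 8 defining genes and enter the mean that is subtracted, so their small SD is in part built in.

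**Figure D4:**
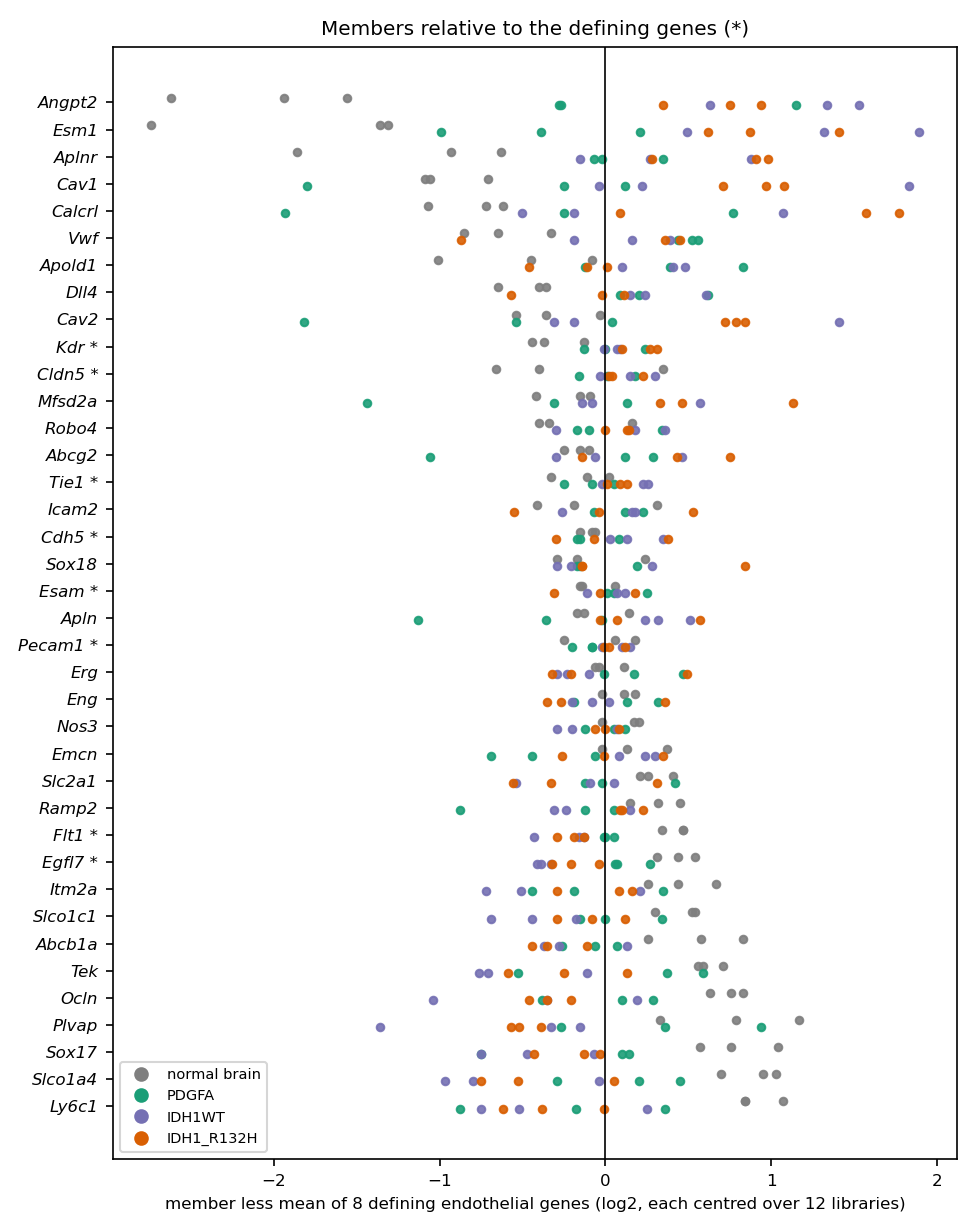
Level of each member (rows) less the mean of the 8 defining endothelial genes (marked *), in log2 units centred over the 12 libraries, 1 point per library coloured by group. Normal brains (grey) lie left of the tumours for Angpt2, Esm1 and Aplnr (differences of 2.72, 2.41 and 1.52) and right of them for Slco1a4 and Ly6c1 (-1.19 and -1.22 on average).

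Levels of different genes were compared per kilobase of exon, scaled to the same total in each library without TMM adjustment. In normal brain Slc2a1 ranked highest of the members, followed by Itm2a and Cldn5, and Angpt2 and Esm1 ranked 37 and 38. By the mean of the 9 tumours Cav1 ranked 1, Slc2a1 2 and Cldn5 3, while Angpt2 ranked 17 and Esm1 27. The first rank of Cav1 rests on IDH1WT tumour 2 (119 on this scale): without it Cav1 averaged 32.8 and Slc2a1 41.1. By group, Cav1 ranked 1 in IDH1_R132H and IDH1WT tumours and 4 in PDGFA tumours, where it stood at 9.71, 13.1 and 31.4 and Slc2a1, at 52.7, 33 and 41.6, ranked 1. The IDH1WT rank also rests on tumour 2. In IDH1WT tumours 1 and 3 Cav1 stood at 23.2 and 64.7, below Slc2a1 at 38.4 and 81.9. On this per-length scale the tumour mean of Cav1 was 42.3 ± 34.3 (SD, n = 9) and that of Slc2a1 40.5 ± 18 (SD, n = 9). These SDs are each gene's spread over the same 9 tumours. The difference between the 2 genes within a tumour was not tested.

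Against normal brain, each tumour group was also tested alone; these comparisons share the same 3 normal brains. In IDH1_R132H tumours 12 members rose and 0 fell (4.83% of all genes called higher and 2.35% lower, 7.17% in all), namely Kdr, Aplnr, Calcrl, Angpt2, Esm1, Vwf, Esam, Abcg2, Mfsd2a, Cav1, Cav2 and Apold1. In IDH1WT tumours 12 rose and 0 fell (1.57% of all genes called higher and 0.152% lower, 1.72% in all): Kdr, Tie1, Aplnr, Angpt2, Apln, Esm1, Dll4, Vwf, Esam, Pecam1, Cav1 and Apold1. In PDGFA tumours 3 rose and 0 fell (0.258% of all genes called higher and 0.0449% lower, 0.303% in all): Angpt2, Vwf and Apold1. Members lower at an unadjusted p under 0.05 numbered 1, 1 and 0. These counts rest on single libraries: edgeR called 0 members against normal brain in IDH1_R132H tumours without tumour 2, in IDH1WT tumours without tumour 2 or 3, and in PDGFA tumours without tumour 3. Without any 1 normal brain it called 0 members in each group, except 1 in IDH1WT tumours without normal brain 1.

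By values alone, all 3 IDH1_R132H tumours lay above all 3 normal brains for 20 of the 38 members and below for 3, against 19.4% and 18.8% of all genes. In IDH1WT tumours 26 members lay above and 1 below (17.4% and 14.5% of all genes), and in PDGFA tumours 12 above and 1 below (8.23% and 7.54%).

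The sizes for these members varied between groups. Angpt2 stood above normal brain by 3.59 in IDH1_R132H, 4.41 in IDH1WT and 3.24 in PDGFA tumours (edgeR adjusted p = 0.014, 0.022 and 0.043). For Vwf these log2 fold changes were 1.38, 1.71 and 1.77, and for Apold1 1.04, 1.82 and 1.52. Mfsd2a rose by 1.64 (SE 0.38) and Cav2 by 1.82 (SE 0.47) in IDH1_R132H tumours, with edgeR adjusted p = 0.028 and 0.039, and Apln rose by 1.4 (SE 0.3) in IDH1WT tumours, with adjusted p = 0.037.

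Between tumour groups no member was called. The series asks about glioma subtype in tumours with mutant and wild-type IDH1, and these comparisons ask whether the members differed with tumour genotype. By edgeR 0 members and 0% of all 17812 genes were called in IDH1_R132H against IDH1WT, IDH1_R132H against PDGFA, IDH1WT against PDGFA and IDH1_R132H against the other 2 groups. Members at an unadjusted p under 0.05 numbered 2, 9, 8 and 4. Of all 17812 genes, those higher and lower at that p were 222 and 253, 896 and 1044, 562 and 476, and 549 and 598. DESeq2 and limma on the deposited log2 values called 0 members in all 4 comparisons. Limma voom with quality weights called 0, 4, 0 and 2, and edgeR without the filter on low counts 0, 5, 5 and 2. The shares of all genes called by voom and without the filter are not given here, so these counts have no background beside them. Calcrl, Cav1, Cav2 and Mfsd2a were the 4 called higher by voom in IDH1_R132H against PDGFA, and Calcrl (higher) and Apold1 (lower) the 2 against the other tumours.

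In IDH1_R132H against IDH1WT, 28 of 38 members were lower in point estimate, as were 9039 of all 17812 genes. The median log2 difference was -0.22 over the members and 0 over all genes. Apold1 differed by -0.78 (95% interval -1.25 to -0.31, unadjusted p = 0.0035) and Dll4 by -0.77 (-1.41 to -0.12, unadjusted p = 0.023), both with edgeR adjusted p = 1. For both, and for Esam, all 3 IDH1_R132H tumours lay below all 3 IDH1WT tumours, an ordering that 3.79% of all genes had. The opposite ordering held for 0 members and 2.96% of all genes. Kdr differed by -0.09 (95% interval -0.57 to 0.39), Cldn5 by -0.29 (-0.9 to 0.32) and Angpt2 by -0.81 (-1.82 to 0.19).

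PDGFA tumours held the lower values for several members. Markers of other cell types differed between the same groups in point estimate. Against PDGFA, IDH1_R132H tumours had median log2 differences of 1.3 over 7 precursor markers (7 positive, 3 at an unadjusted p under 0.05), -1.46 over 6 myelin markers (5 at that p) and -2.74 over 5 red blood cell genes (5 at that p). In IDH1WT against PDGFA these medians were 0.87, -1.17 and -2.02, and over 11 pericyte genes the median was 0.92 (11 positive, 7 at an unadjusted p under 0.05). Summed myelin markers were 2140 to 2710 CPM in IDH1_R132H, 2030 to 3500 in IDH1WT and 3040 to 10900 in PDGFA tumours, and summed pericyte genes 598 to 930, 482 to 981 and 235 to 643. The part of these cells in the differences was not tested. Against PDGFA, IDH1_R132H tumours had higher Cav1 (1.5, unadjusted p = 0.01), Cav2 (1.46, 0.0079), Calcrl (1.44, 0.028), Esm1 (1.42, 0.025), Mfsd2a (1.21, 0.0074) and Apln (0.76, 0.022) in point estimate, with edgeR adjusted p of 0.34 to 0.41. Plvap (-0.89, unadjusted p = 0.041), Apold1 (-0.48, 0.045) and Slco1a4 (-0.45, 0.049) were lower in point estimate. Values did not overlap for Esm1, Cav1 and Cav2, higher, and for Plvap, lower, orderings held by 5.86% and 7.25% of all genes. In IDH1WT against PDGFA the largest differences were those of Esm1 (2.03, unadjusted p = 0.0028), Cav1 (1.72, 0.0043), Cav2 (1.44, 0.0085), Angpt2 (1.16, 0.026) and Apln (1.14, 0.0019), with edgeR adjusted p of 0.81 for these members. Groups did not overlap for 5 members higher in IDH1WT and 1 lower, against 4.32% and 4% of all genes. Vwf differed by -0.06 (95% interval -0.63 to 0.5). Against both other groups together, IDH1_R132H tumours were separate for 0 members higher and 0 lower, against 1.01% and 1.31% of all genes.

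**Figure D5:**
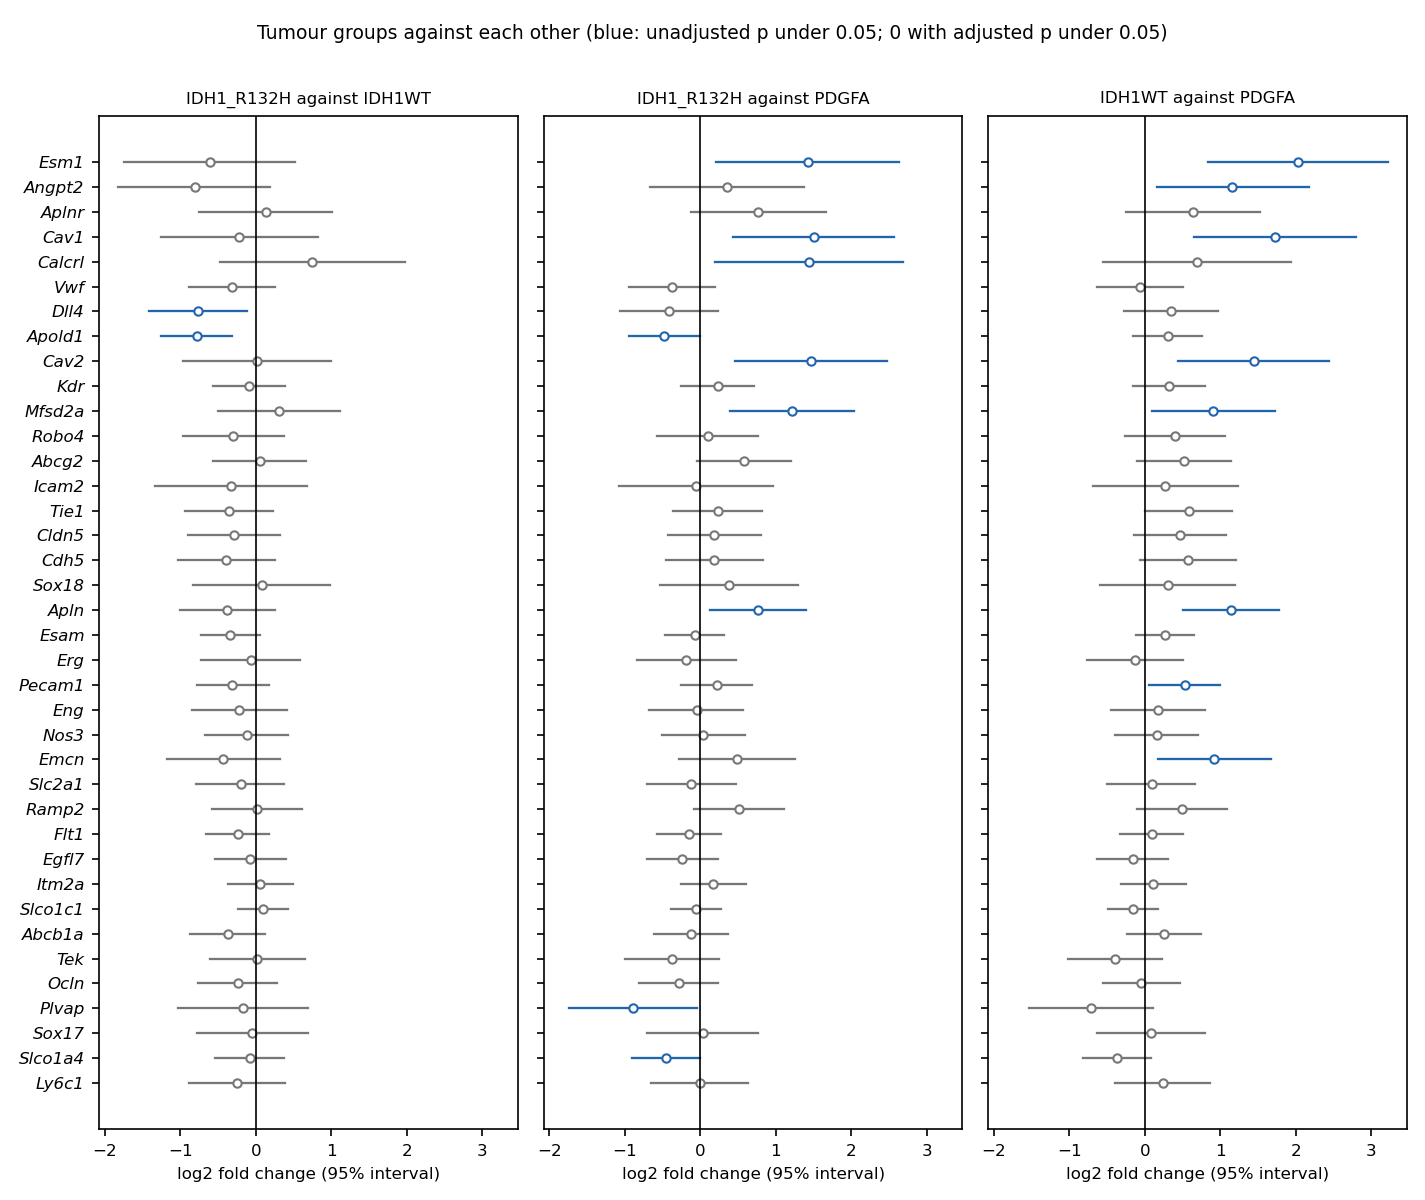
Log2 difference of each of the 38 members between tumour groups (points) with its 95% interval (lines), on 1 shared axis; blue marks an unadjusted p under 0.05. The counts of blue members are 2, 9 and 8 from left to right, and edgeR called none of them after adjustment, while limma voom called 4 of those in the middle panel.

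Other genes of the same pathways were counted from lists, by edgeR in tumours against normal brain unless another tool is named, a comparison in which edgeR called 5.22% of all genes, DESeq2 11.7% and limma voom 33.7%. Of 6 VEGF and angiopoietin ligands edgeR called 0 (1 higher and 1 lower at an unadjusted p under 0.05), and DESeq2 1 higher and 1 lower. Vegfa differed by 1.27 (SE 0.35, edgeR adjusted p = 0.056) and Vegfb -0.51 (adjusted p = 0.064). Flt4, the VEGF receptor of lymphatic and sprouting endothelium, rose by 1.11 (adjusted p = 0.027), while edgeR and DESeq2 did not call the co-receptors Nrp1 (0.4) and Nrp2 (-0.01), and limma voom called Nrp1 higher (adjusted p = 0.017). In the Notch list edgeR called 1 of 9, the ligand Jag1 (1.18, adjusted p = 0.021). At an unadjusted p under 0.05, 7 Notch genes were higher and 1 lower, DESeq2 called 5 higher, and limma voom 7 higher and 1 lower. Of 18 genes of the Wnt and beta-catenin pathway that builds the barrier, 3 rose, Apcdd1 (1.02), Lrp5 (1.22) and Ctnnb1 (0.69), and the target gene Axin2 stood at -0.25 (adjusted p = 0.2).

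Of 12 tip cell genes 7 rose, 3 of them members already described (Angpt2, Esm1 and Dll4), and the median log2 fold change was 1.91. The others included Nid2 (2.33), Mcam (1.62) and the chemokine receptor Cxcr4 (2.77), with edgeR adjusted p of 0.011 to 0.012. Of 35 further endothelial genes 9 rose and 1 fell, with a median of 0.36, among them the amino acid transporter Slc7a5 (1.23, adjusted p = 0.011) and the ETS factor Ets1 (1.58, 0.017). Among 7 arterial genes edgeR and DESeq2 called 0 (0 at an unadjusted p under 0.05) and limma voom 1, lower, and among 6 venous and inflamed genes 1 rose, the adhesion molecule Icam1 (1.68, adjusted p = 0.038). Of 11 tight junction partners edgeR called 1, Jam3 (0.84, adjusted p = 0.029), with 7 higher at an unadjusted p under 0.05. DESeq2 called 5 of them higher, and limma voom 7 higher and 1 lower. Vascular wall cells were counted too: 3 of 11 pericyte genes rose, Cspg4, Rgs5 and Abcc9, of which Cspg4 is also a precursor marker, and edgeR and DESeq2 called 0 of 5 smooth muscle genes (2 higher at an unadjusted p under 0.05), limma voom 2 higher and 1 lower.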

How the data were processed

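The deposited count table holds whole-number read counts per gene, made by the authors; per the submitters' processing notes featureCounts 1.5.1 from Subread, STAR 2.5.2b and DESeq2 1.16.1 were used on GRCm38. Neither a strand setting nor the treatment of multiply mapped reads is stated. A second table deposited by the authors holds log2 values (regularized log by its name) and served as an alternative only. GENCODE M21 gave symbols to 49412 of 49671 gene identifiers. The members and all lists were chosen with earlier results of these data known.

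Counts were filtered with filterByExpr (minimum count 10, minimum total 15) and TMM-scaled. A robust edgeR 4.0.16 quasi-likelihood model in R 4.3.3 had 1 coefficient for each of the 4 groups over 12 libraries (8 residual degrees of freedom) and gave 8 comparisons. Benjamini-Hochberg adjustment ran over all 17812 genes, and genes were called at adjusted p under 0.05. The common biological coefficient of variation was 26.47%. The procedure was tested on simulated data with known fold changes. Values by library are given for members called in any comparison, and ranges for the others. Other lists are given as counts with a few of the genes of smallest p. Relative levels use log2 CPM with a prior count of 2. Alternatives were RLE factors, DESeq2 1.42.0, limma 3.58.1 (voom with quality weights, or on the deposited log2 values), no filter, no robust option, ribosomal-RNA-like loci left out, only the groups compared, and libraries left out. Some genotype labels are not reported here.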

Additional observations from a re-analysis of the deposited data

Results flagged for a closer look

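All 38 members were tested, and in 3 a single tumour stood apart from the other 8 tumours by more than Dixon's 95% critical value for 9 samples. Chance flags about 1 in 20 groups tested this way, so some flags among 38 members are expected by chance. Tek, the angiopoietin receptor, reached 17.6 CPM in PDGFA tumour 1, where the next tumour had 9.87. Plvap, the diaphragm gene, reached 13.2 CPM in the same tumour, where the next had 6.34. Cav1, the caveolar coat gene, reached 190 CPM in IDH1WT tumour 2, where the next had 102.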

How the results depend on the processing

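Every member kept its sign for tumours against normal brain in all 22 alternatives, except Tek (18 of 22) and Abcb1a (15 of 22). The count of 15 called members was 14 to 21 under RLE factors, DESeq2, limma on the deposited log2 values, no filter, no robust option, ribosomal loci left out, only the groups compared, and with IDH1_R132H tumour 3 and PDGFA tumour 1 both left out. It was 27 (25 higher, and Slco1a4 and Ly6c1 lower) under limma voom with quality weights, which called 33.7% of all genes, and 0 to 19 with single libraries left out. For IDH1_R132H against normal brain the 12 became 19 (DESeq2), 27 (voom) and 0 to 9 (single libraries left out). For IDH1WT against normal brain the 12 became 19 (DESeq2, no filter, and without the 2 libraries together), 27 (voom), 21 (only the groups compared) and 0 to 16 (single libraries left out). For PDGFA against normal brain the 3 became 8 (DESeq2), 9 (no filter), 7 (without the 2 libraries together), 0 (deposited log2 values, and only the groups compared) and 0 to 4 (single libraries left out). Summing normal brains 1 and 2, which were much alike, as 1 library, chosen after seeing the data, gave 0 members in each comparison with normal brain. Between tumour groups voom called 4 in IDH1_R132H against PDGFA and 2 against the other tumours. Without the filter the counts were 5, 5 and 2 in IDH1_R132H against PDGFA, IDH1WT against PDGFA and IDH1_R132H against the other tumours. The shares of all genes called between tumour groups under these 2 settings are not given here. The cause of these changes was not tested. No paired analysis was possible because the labels give no shared replicate numbers. Depth limits Esm1, Angpt2 and Icam2 most, as their normal levels were at or below 1.32 CPM.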
